A study of Mus musculus with 11 samples.

Results

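The genes described here make the sugar, fucose and sulfate structures by which leukocytes bind selectins. They are Selplg, C1galt1, C1galt1c1, Gcnt1, Fut4, Fut7, Chst2, Tpst1 and Tpst2, that is 9 of the 909 genes that could be named on the chip, with 12 of its 1246 probe sets. A gene was taken where the identifier of a probe set carried one of its RefSeq transcripts. Where there were several probe sets, as for Gcnt1 and Fut4, the one with the highest mean over all 11 arrays stood for the gene. None of the measured differences between populations was used in that choice of probe set. The genes themselves were chosen with earlier results of these data known.

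Transcripts were measured with a custom Affymetrix glyco-gene chip in CD4+ T cells of the spleen of C57BL/6 mice, split by flow cytometry into 3 populations. These were CD4+CD25+(CD45RBlow) cells, called Treg below as in the labels (3 arrays, numbered replicates 1, 2 and 4), CD4+CD25-CD45RBlow cells, which the labels call activated/memory (4 arrays, CD45RBlow below), and CD4+CD25-CD45RBhigh cells, which they call naive (4 arrays, CD45RBhigh below). All mice were female and no allele or treatment is named for any group. Mice of 4 to 6 weeks are named for both CD25- populations, and no age for Treg, so age and population cannot be told apart in comparisons with Treg. The labels do not say whether replicates are separate animals. The p-values below therefore reflect a spread between samples that may be technical.

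Selectins are lectins of leukocytes, platelets and vessel walls that slow T cells in flowing blood. They bind sialylated, fucosylated glycans of the sialyl Lewis X type, carried mostly on mucin-like proteins such as PSGL-1, the product of Selplg. On T cells the O-glycan is started with GalNAc, extended to core 1, branched to core 2, capped with sialic acid and fucosylated, and sulfate on tyrosines of PSGL-1 or on GlcNAc adds to binding by particular selectins. Resting naive T cells are known to carry few such structures, and activated, memory and regulatory T cells more.

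The sort was checked on the arrays. Il2ra, which encodes CD25, had a mean log2 level of 9.84 ± 0.17 in Treg cells (SD, n = 3), against 6.17 ± 0.36 in CD45RBlow and 4.07 ± 0.27 in CD45RBhigh cells (SD, n = 4 each). Ccr7, a homing receptor of naive T cells, had 10.37 ± 0.12, 10.69 ± 0.17 and 11.38 ± 0.13. Of 7 markers of the CD4 T cell lineage that were looked for, 1 was measured, Cd2, at 11.7 to 12.4 on all arrays. Its means were 12.31 in Treg, 11.86 in CD45RBlow and 11.81 in CD45RBhigh cells, with every Treg array above all others. The arrays had medians of 4.85 to 4.94, and precision is limited by how few arrays there are. Arrays of replicates 1 and 2 differed from those of replicates 3 and 4 of the same population, so results are also given within each of these sets. The set of replicates 3 and 4 has 1 Treg array. In such sorted bulk samples, fewer cells with a transcript and less of it per cell cannot be told apart.

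The promoter windows of Fut7 and Chst2 are shown because the differences of these genes from CD45RBhigh cells passed under every alternative run. They run from 250 bases before to 50 bases after a listed transcription start, 300 bases in all, read 5′ to 3′ on the gene's strand, and are from RefSeq on build GRCm38.p6. Capitals mark the only match to any of 3 motifs searched, the GATA letters AGATAA read on the other strand. The T-box letters are GGTGTGA. The upstream Fut7 window is chr2:25422992-25423291 on the plus strand, the downstream one chr2:25423444-25423743 on the plus strand, and the Chst2 window chr9:95407221-95407520 on the minus strand.
Fut7 upstream: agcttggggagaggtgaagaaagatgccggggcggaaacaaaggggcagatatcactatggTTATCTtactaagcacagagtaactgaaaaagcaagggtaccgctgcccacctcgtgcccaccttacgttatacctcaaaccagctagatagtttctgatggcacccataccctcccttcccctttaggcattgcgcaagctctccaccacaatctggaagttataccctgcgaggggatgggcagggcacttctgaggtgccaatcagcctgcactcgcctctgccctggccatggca
Fut7 downstream: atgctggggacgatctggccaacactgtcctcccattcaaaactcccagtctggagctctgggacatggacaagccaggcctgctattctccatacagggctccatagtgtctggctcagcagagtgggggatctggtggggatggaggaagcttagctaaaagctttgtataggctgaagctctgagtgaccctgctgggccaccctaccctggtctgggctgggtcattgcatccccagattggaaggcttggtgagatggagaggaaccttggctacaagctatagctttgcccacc
Chst2: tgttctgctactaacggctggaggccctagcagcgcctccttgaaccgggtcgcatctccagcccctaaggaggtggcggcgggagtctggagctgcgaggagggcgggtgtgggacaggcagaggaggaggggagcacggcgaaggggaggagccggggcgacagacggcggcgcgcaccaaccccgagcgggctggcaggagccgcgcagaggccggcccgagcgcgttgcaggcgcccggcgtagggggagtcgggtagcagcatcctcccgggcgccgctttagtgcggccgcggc

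Besides these GATA letters, both strands were searched for a T-box motif and a STAT motif, spelled TTCNNNGAA. RefSeq listed windows for 7 of the 9 genes, 13 windows in all, and Selplg and C1galt1c1 are named only. The GATA letters in the upstream Fut7 window were the 1 match among these 13. Of all 32851 mouse windows of this length, 3.98% held the T-box letters, 8.30% the STAT letters and 11.2% the GATA letters. A match is a description of the sequence and not a binding site. In base composition, the Chst2 window had 73% G or C with 34 CpG, the Fut7 windows 54% with 8 CpG and 55.7% with 1 CpG, and the median of all windows was 52.7% with 7 CpG.

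In short, Fut7, Chst2 and Gcnt1 had higher transcript levels in both Treg and CD45RBlow cells than in CD45RBhigh cells, and Fut7 was higher in Treg than in CD45RBlow cells as well. Signal was low for Gcnt1, and its other probe set did not pass. Tpst1 and Tpst2 differed in opposite directions between Treg and CD45RBlow cells, but these calls were lost in 8 and 10 of the alternatives run. Selplg, C1galt1, C1galt1c1 and Fut4 did not pass the test in any comparison. Some alternatives given below did pass for Selplg, C1galt1 and Fut4, and so did a dimmer Fut4 probe set. A result passed where the Benjamini-Hochberg adjusted p over all 1246 probe sets, from limma on all arrays, was under 0.05. All levels and differences are on the log2 scale of the deposited values.

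In Treg against CD45RBhigh cells 3 of the 9 genes passed (33.3%), all higher in Treg. Over all probe sets the share was 18.9%, made up of 10.3% higher and 8.59% lower. In Treg against CD45RBlow cells 3 passed, 2 higher and 1 lower, beside a share of 12.5% over all probe sets (6.74% higher and 5.78% lower). In CD45RBlow against CD45RBhigh cells 3 passed, all higher in CD45RBlow, beside a share of 12.6% (7.62% higher and 4.98% lower). In that last comparison quantile normalization changed the split over all probe sets to 98 higher and 129 lower, against 95 and 62 as deposited. With so few genes, 1 call more or less moves these shares by much. The 3 comparisons share arrays and are not independent.

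The median difference of the 9 genes was 0.11 in Treg against CD45RBhigh cells, beside -0.04 over all probe sets. It was 0.08 in Treg against CD45RBlow cells, beside 0.04, and -0.05 in CD45RBlow against CD45RBhigh cells, beside -0.08. At an unadjusted p under 0.05 they numbered 5, 4 and 4 in the 3 comparisons, in which 30%, 22.6% and 28.4% of all probe sets were that low. The arrays of the populations compared did not overlap for 4, 3 and 4 of the genes, and for 25%, 21.3% and 17.8% of all probe sets. With the replicate number as a block the genes that passed numbered 5, 4 and 3, and the probe sets 330, 245 and 271.

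**Figure D1:**
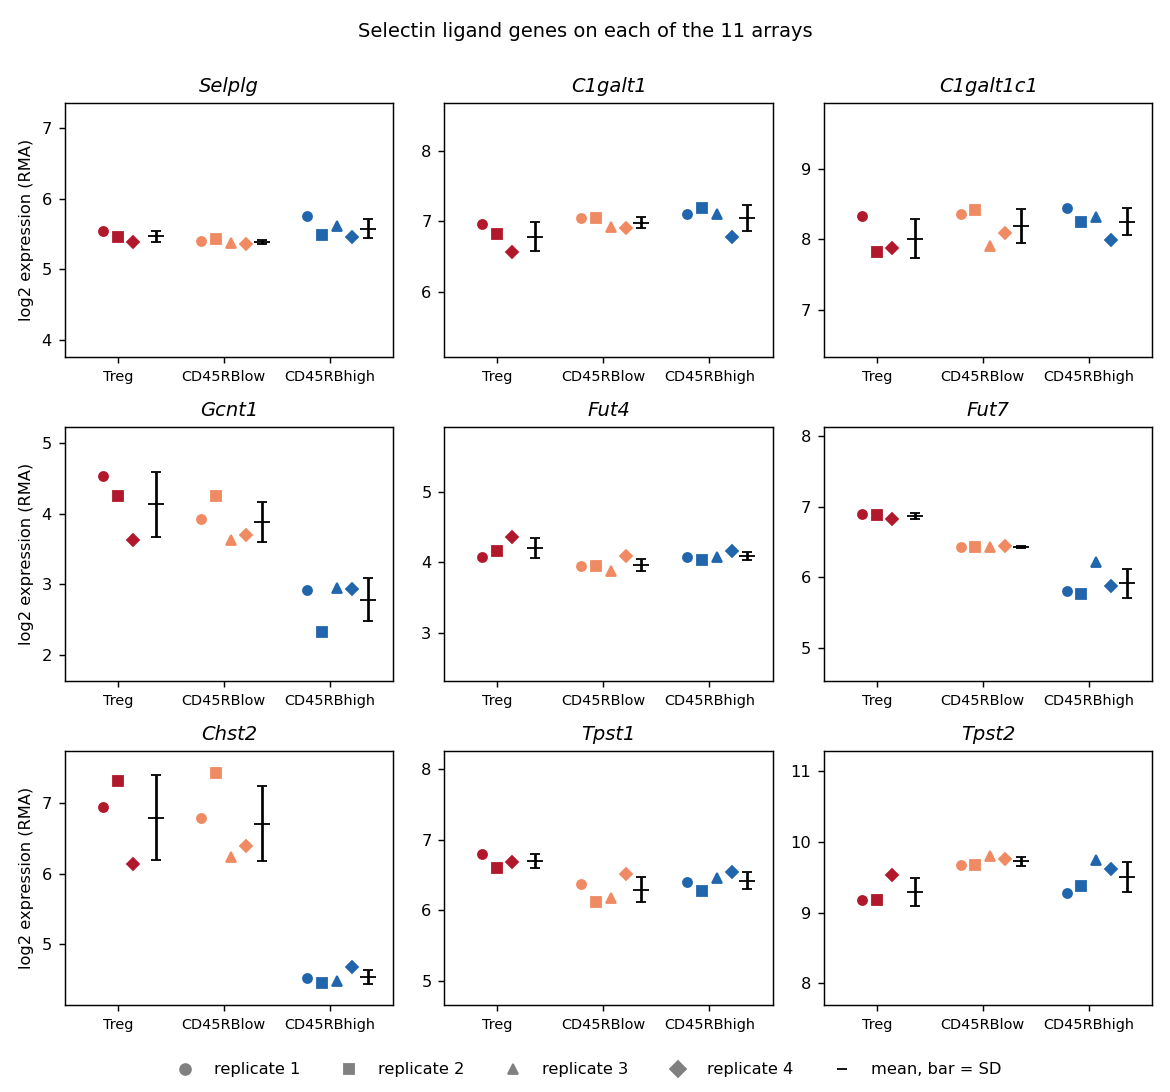
Log2 expression (RMA, vertical axis) of each of the 9 genes on each of the 11 arrays, by population, with replicates as symbols and the mean and SD as a bar beside them. Chst2 and Gcnt1 arrays of Treg and CD45RBlow cells lie above all CD45RBhigh arrays, and Fut7 forms 3 separate levels, with Treg cells at 6.82 to 6.89.

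Selplg encodes PSGL-1, the best known protein carrier of selectin ligands on T cells. It had 5.55, 5.46 and 5.39 in Treg cells, 5.40, 5.42, 5.37 and 5.36 in CD45RBlow cells and 5.75, 5.49, 5.61 and 5.46 in CD45RBhigh cells. Every CD45RBlow array lay under every CD45RBhigh array, and Treg arrays overlapped with both. The difference between CD45RBlow and CD45RBhigh cells was -0.19 (95% interval -0.34 to -0.04, adjusted p = 0.111), and it passed only after quantile normalization (-0.28, adjusted p = 0.0144). Treg cells differed by -0.11 from CD45RBhigh cells (-0.28 to 0.06, adjusted p = 0.400) and by 0.08 from CD45RBlow cells (-0.09 to 0.24, adjusted p = 0.602). Selplg thus spanned 5.36 to 5.75 over all 11 arrays.

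C1galt1 encodes the galactosyltransferase that makes core 1, and C1galt1c1 its chaperone Cosmc, without which that enzyme does not fold. C1galt1 had 6.97, 6.82 and 6.56 in Treg cells, 7.04, 7.05, 6.92 and 6.90 in CD45RBlow cells and 7.11, 7.20, 7.10 and 6.77 in CD45RBhigh cells. The lowest array was Treg replicate 4, and all populations overlapped. C1galt1 differed by -0.26 between Treg and CD45RBhigh cells (-0.52 to -0.01, adjusted p = 0.149). With the replicate block that difference passed (-0.26, adjusted p = 0.0316), as it did without CD45RBhigh replicate 4 (adjusted p = 0.0338). Treg differed from CD45RBlow cells by -0.20 (-0.45 to 0.05), and CD45RBlow from CD45RBhigh cells by -0.06 (-0.30 to 0.17).

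C1galt1c1 had 8.33, 7.82 and 7.88 in Treg cells, 8.36, 8.42, 7.90 and 8.09 in CD45RBlow cells and 8.44, 8.24, 8.31 and 7.99 in CD45RBhigh cells. The populations overlapped throughout, and the spread within each was as wide as the gaps between them. Its differences were -0.24 (-0.59 to 0.11) between Treg and CD45RBhigh cells, -0.19 (-0.54 to 0.17) between Treg and CD45RBlow cells and -0.05 (-0.38 to 0.27) between CD45RBlow and CD45RBhigh cells. Their adjusted p ran from 0.386 to 0.827. The intervals still allow changes in either direction.

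Gcnt1 encodes the core 2 branching enzyme, whose branch carries the selectin-binding sialyl Lewis X on T cell O-glycans. It had 4.53, 4.25 and 3.63 in Treg cells, 3.93, 4.26, 3.63 and 3.70 in CD45RBlow cells and 2.92, 2.33, 2.95 and 2.94 in CD45RBhigh cells. Every Treg and CD45RBlow array lay above every CD45RBhigh array, while Treg and CD45RBlow arrays overlapped. The CD45RBhigh mean of 2.78 ± 0.30 (SD, n = 4) is under 3.64, the first quartile of all values, which is read as near background. The sizes against CD45RBhigh cells are therefore estimates that may be too small, and not lower bounds. Gcnt1 was 2.55-fold higher in Treg than in CD45RBhigh cells (log2 difference 1.35, SE 0.23, interval 0.85 to 1.86, adjusted p = 0.00137). It was 2.14-fold higher in CD45RBlow than in CD45RBhigh cells (1.10, SE 0.21, interval 0.63 to 1.57, adjusted p = 0.00508).

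Between Treg and CD45RBlow cells Gcnt1 differed by 0.26 (-0.25 to 0.76, adjusted p = 0.573). Within replicates 1 and 2 the Treg to CD45RBhigh difference was 1.76, and within replicates 3 and 4 it was 0.69 and did not pass (adjusted p = 0.0773). The CD45RBlow to CD45RBhigh difference was 1.47 in the first of these sets and 0.72 in the other, and passed in both. A second Gcnt1 probe set read 3.37 to 3.54 on all arrays, under the same quartile, and showed differences of 0.06 and 0.03 from CD45RBhigh cells that did not pass (adjusted p = 0.532 for Treg and 0.697 for CD45RBlow). The Gcnt1 result therefore rests on 1 of its probe sets, whose identifier has the suffix s, the mark of a probe set that can match several transcripts.

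Fut7 encodes the alpha-1,3-fucosyltransferase that completes sialyl Lewis X in leukocytes. It had 6.89, 6.89 and 6.82 in Treg cells, 6.42, 6.42, 6.42 and 6.44 in CD45RBlow cells and 5.81, 5.77, 6.21 and 5.88 in CD45RBhigh cells. The 3 populations formed 3 levels with no overlap. CD45RBhigh replicate 3 was the array nearest to the CD45RBlow ones. Of the CD45RBlow arrays 3 held exactly the same value, as some arrays of that population did at 15.8% of all probe sets, so their SD of 0.01 understates the measurement error. The fit pools this spread with that of the other populations, so the Fut7 intervals may be too narrow and its p-values too small.

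Fut7 was 1.93-fold higher in Treg than in CD45RBhigh cells (log2 difference 0.95, 95% interval 0.74 to 1.16, adjusted p = 2.00e-05). It was 1.35-fold higher in Treg than in CD45RBlow cells (0.44, 0.23 to 0.65, adjusted p = 0.00963) and 1.43-fold higher in CD45RBlow than in CD45RBhigh cells (0.51, 0.32 to 0.71, adjusted p = 0.00206). Same-numbered arrays gave 1.09, 1.12 and 0.94 for Treg minus CD45RBhigh, 0.47, 0.46 and 0.38 for Treg minus CD45RBlow, and 0.62, 0.66, 0.21 and 0.56 for CD45RBlow minus CD45RBhigh. Each of these differences was positive. Within replicates 1 and 2, and within 3 and 4, Treg minus CD45RBhigh was 1.10 and 0.78, Treg minus CD45RBlow 0.46 and 0.39, and CD45RBlow minus CD45RBhigh 0.64 and 0.39. Treg minus CD45RBlow did not pass within replicates 3 and 4 (adjusted p = 0.0900).

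Fut4 encodes the other alpha-1,3-fucosyltransferase of leukocytes, which acts more on inner GlcNAc residues of the chain. It had 4.08, 4.17 and 4.37 in Treg cells, 3.94, 3.95, 3.87 and 4.09 in CD45RBlow cells and 4.08, 4.03, 4.08 and 4.17 in CD45RBhigh cells. The populations overlapped, with Treg replicate 4 the highest array. Treg cells differed by 0.24 from CD45RBlow cells (0.07 to 0.42, adjusted p = 0.0756), which passed with the replicate block (0.23, adjusted p = 0.0425) and without CD45RBlow replicate 4 (adjusted p = 0.0497). The differences were 0.11 for Treg minus CD45RBhigh (-0.06 to 0.29) and -0.13 for CD45RBlow minus CD45RBhigh (-0.29 to 0.03).

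The remaining Fut4 probe sets were dimmer, with population means under the first quartile. One, with the suffix x, was higher in Treg cells by 0.26 against CD45RBhigh cells (adjusted p = 0.0201) and by 0.33 against CD45RBlow cells (adjusted p = 0.00769). Its Treg arrays read 3.60, 3.45 and 3.33, above 3.17, 3.09, 3.18 and 3.09 in CD45RBlow cells and 3.22, 3.22, 3.22 and 3.14 in CD45RBhigh cells. The other read 2.59 to 2.97 and did not pass. The Fut4 probe sets thus disagree on the call, at levels that are low throughout.

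Chst2 encodes a GlcNAc-6-O-sulfotransferase, which makes the 6-sulfo form of sialyl Lewis X. It had 6.94, 7.31 and 6.13 in Treg cells, 6.78, 7.43, 6.24 and 6.39 in CD45RBlow cells and 4.53, 4.45, 4.48 and 4.68 in CD45RBhigh cells. The lowest Treg or CD45RBlow array stood well above the highest CD45RBhigh array. Within Treg and within CD45RBlow cells, replicate 2 was the highest array. Chst2 was 4.78-fold higher in Treg than in CD45RBhigh cells (2.26, 1.60 to 2.91, adjusted p = 0.000201) and 4.51-fold higher in CD45RBlow than in CD45RBhigh cells (2.17, 1.57 to 2.78, adjusted p = 0.000257).

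Between Treg and CD45RBlow cells Chst2 differed by 0.08 with an interval of -0.57 to 0.74 (adjusted p = 0.898). These arrays therefore still allow a difference of either sign within that interval. Same-numbered arrays gave 0.15, -0.11 and -0.26 for that comparison, 2.41, 2.87 and 1.44 for Treg minus CD45RBhigh, and 2.25, 2.98, 1.76 and 1.70 for CD45RBlow minus CD45RBhigh. Treg minus CD45RBhigh was 2.64 within replicates 1 and 2 and 1.54 within 3 and 4, and CD45RBlow minus CD45RBhigh 2.62 and 1.73. Both passed in both sets. A test of the difference between the sets, added after seeing the data, did not pass for either (adjusted p = 0.593 and 0.354; unadjusted p = 0.00627 and 0.0105 from limma), nor for any other comparison of the 9 genes.

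**Figure D2:**
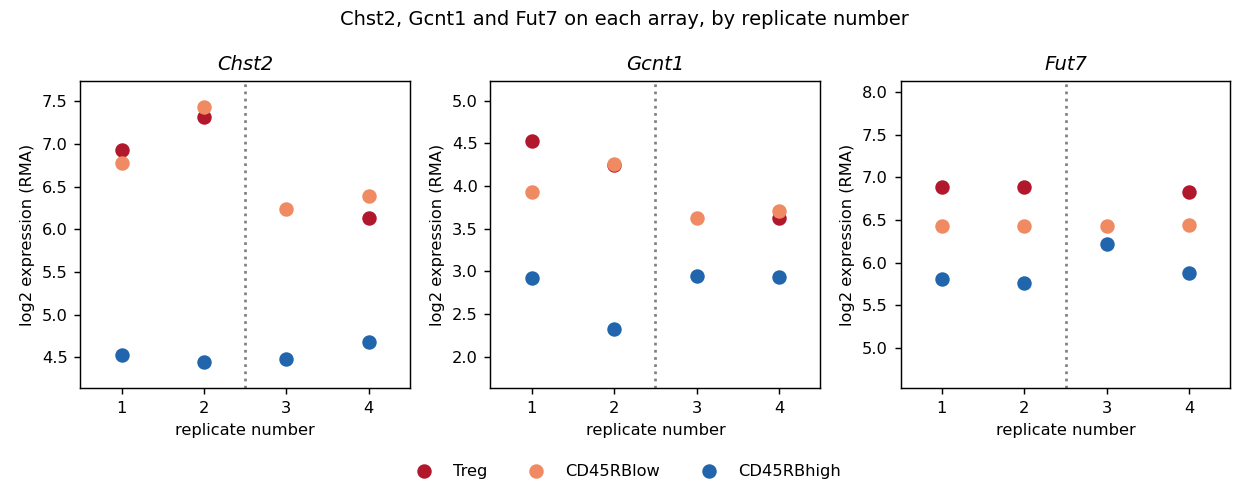
Log2 expression (RMA) of Chst2, Gcnt1 and Fut7 against replicate number, 1 point per array, with replicates 1 and 2 left and 3 and 4 right of the dotted line. Chst2 in Treg and CD45RBlow cells reads 6.78 to 7.43 left of the line and 6.13 to 6.39 right of it, while CD45RBhigh arrays stay between 4.45 and 4.68.

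Tpst1 and Tpst2 encode the Golgi sulfotransferases that sulfate tyrosines, among them those at the end of PSGL-1 that P-selectin binds. Tpst1 had 6.80, 6.59 and 6.69 in Treg cells, 6.37, 6.12, 6.17 and 6.51 in CD45RBlow cells and 6.39, 6.27, 6.46 and 6.55 in CD45RBhigh cells. Every Treg array lay above every array of the other two populations, by a small margin. Tpst1 was 1.32-fold higher in Treg than in CD45RBlow cells (0.40, 0.17 to 0.63, adjusted p = 0.0255), and this call was lost in 8 of 20 alternatives. It was lost without Treg replicate 1 (adjusted p = 0.109) or 4 (0.0642) and without CD45RBlow replicate 2 (0.0659) or 3 (0.0666), with values given by limma.

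Against CD45RBhigh cells the Tpst1 difference in Treg cells was 0.28 (0.05 to 0.50, adjusted p = 0.0965). It passed with the replicate block (0.26, adjusted p = 0.0368). CD45RBlow and CD45RBhigh cells differed by -0.12 (-0.34 to 0.09, adjusted p = 0.409). The Tpst1 probe set also has the suffix s.

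Tpst2 ran the other way. It had 9.18, 9.18 and 9.53 in Treg cells, 9.68, 9.67, 9.81 and 9.76 in CD45RBlow cells and 9.28, 9.38, 9.75 and 9.62 in CD45RBhigh cells. Every Treg array lay under every CD45RBlow array, and CD45RBhigh arrays spanned the gap. Tpst2 was 1.35-fold lower in Treg than in CD45RBlow cells (-0.43, -0.70 to -0.17, adjusted p = 0.0362), a call lost in 10 of 20 alternatives. These include leaving out Treg replicate 1 (adjusted p = 0.142) or 2 (0.147) and any 1 of the CD45RBlow arrays (0.0619 to 0.0869). With the replicate block both calls held, at 0.39 for Tpst1 (adjusted p = 0.00634) and -0.38 for Tpst2 (adjusted p = 0.00664). Within replicates 1 and 2 the Tpst1 difference was 0.45 and did not pass by limma (adjusted p = 0.0532). That of Tpst2 was -0.49 there and passed (adjusted p = 0.00228). Within replicates 3 and 4, with 1 Treg array, they were 0.35 and -0.25.

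Tpst2 in Treg against CD45RBhigh cells differed by -0.21 (-0.48 to 0.05, adjusted p = 0.282), and in CD45RBlow against CD45RBhigh cells by 0.22 (-0.03 to 0.46, adjusted p = 0.218). Within replicates 1 and 2 alone the last difference was 0.34 and passed (adjusted p = 0.0178), and within 3 and 4 it was 0.10.

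**Figure D3:**
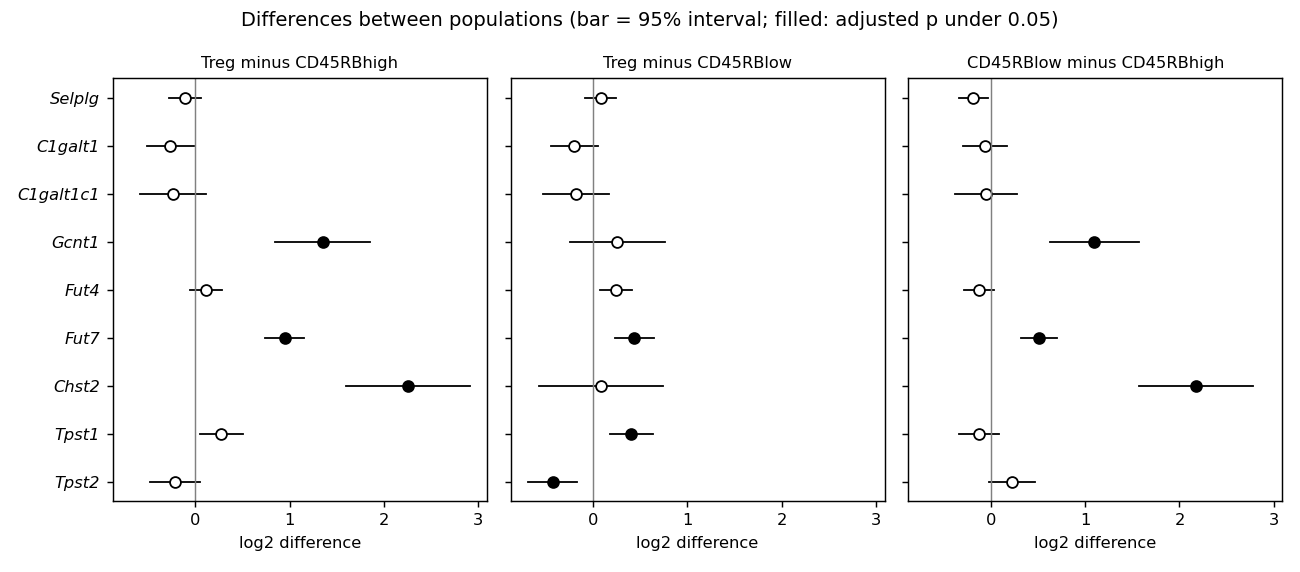
Log2 difference (horizontal axis, point) with its 95% interval (bar) for each of the 9 genes in the 3 comparisons, with filled points for an adjusted p under 0.05. Chst2 at 2.26 and 2.17 and Gcnt1 at 1.35 and 1.10 stand apart in the comparisons with CD45RBhigh cells, whereas in Treg minus CD45RBlow Fut7, Tpst1 and Tpst2 are filled.

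The patterns most like those of the 3 genes were sought among all named genes by the mean absolute difference of log2 values, each gene centred on its own mean, over the 11 arrays. For Fut7 they were Ccr3 (0.11), a chemokine receptor, Icam1 (0.12), an adhesion molecule, and St3gal5 (0.12), a sialyltransferase of glycolipids, with a median of 0.37 over all named genes. Their means in Treg, CD45RBlow and CD45RBhigh cells step down as those of Fut7 do, as with Icam1 at 9.06, 8.77 and 8.02. For Chst2 they were Cxcr5 (0.22), the chemokine receptor of follicular homing, Angptl2 (0.25), a secreted glycoprotein, and Bmp7 (0.28), a growth factor of the TGF-beta family (median 1.05). Cxcr5 had means of 8.18, 7.94 and 5.84. For Gcnt1 they were Lgals1 (0.19), a galectin, Cks1b (0.22), a cell cycle regulator, and Icam1 (0.22), with a median of 0.60. Among named genes Gcnt1 ranked 11th in likeness to Chst2, and Chst2 ranked 67th in likeness to Gcnt1 (0.46). In likeness to Fut7 Chst2 ranked 871st (0.75), farther than the median gene. This distance also grows with the size of a gene's steps, and Chst2 spanned 2.98 over the arrays where Fut7 spanned 1.12. The rank therefore does not mean an opposite order, and both had their lowest mean in CD45RBhigh cells. Likeness over arrays of 3 populations describes shared steps only, and the arrays of 1 replicate set vary together.

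The rest of the pathway was described from a list of 44 other genes, of which 38 were measured. In Treg against CD45RBhigh cells 5 were higher, 4 lower and 29 did not pass, with a median difference of -0.03. In Treg against CD45RBlow cells 5 were higher, 3 lower and 30 did not pass (median 0.03), and in CD45RBlow against CD45RBhigh cells 5 were higher, 0 lower and 33 did not pass (median -0.05). These counts are 23.7%, 21.1% and 13.2% of the 38, beside 18.9%, 12.5% and 12.6% of all probe sets, so in CD45RBlow against CD45RBhigh cells the share was near that over all. In all 13 of them passed in at least 1 comparison and 25 in none.

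Among genes for chain extension, B4galt4, a galactosyltransferase that builds N-acetyllactosamine, was higher by 1.22 in Treg than in CD45RBhigh cells (SE 0.13, adjusted p = 3.23e-05). It was higher by 0.77 in Treg than in CD45RBlow cells (SE 0.13, adjusted p = 0.00181) and by 0.45 in CD45RBlow than in CD45RBhigh cells (SE 0.12, adjusted p = 0.0320). Its arrays read 5.57, 5.66 and 5.23 in Treg cells, 4.75, 4.96, 4.51 and 4.64 in CD45RBlow cells and 4.35, 4.35, 4.06 and 4.31 in CD45RBhigh cells, 3 levels with no overlap, in the same order as Fut7. B3gnt2, which extends poly-N-acetyllactosamine, was higher by 0.67 in Treg than in CD45RBhigh cells (SE 0.19, adjusted p = 0.0273). B4galt1 and B4galt3, of the same family as B4galt4, were lower there, by -0.28 (SE 0.08, adjusted p = 0.0228) and -0.61 (SE 0.16, adjusted p = 0.0235).

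The sialyltransferases that cap the chains differed in both directions. St3gal6, an alpha-2,3-sialyltransferase that contributes to selectin ligands in mice, had the widest differences among the other pathway genes that passed. It read 4.96, 4.64 and 4.997 in Treg cells, 8.20, 8.29, 7.94 and 8.10 in CD45RBlow cells and 7.63, 7.60, 7.59 and 7.18 in CD45RBhigh cells. It was 9.62-fold lower in Treg than in CD45RBlow cells (adjusted p = 8.16e-08), 6.21-fold lower in Treg than in CD45RBhigh cells (adjusted p = 1.14e-07) and 1.55-fold higher in CD45RBlow than in CD45RBhigh cells (adjusted p = 0.00508). Its order over the populations therefore differed from that of Fut7, Chst2 and Gcnt1, with Treg cells lowest.

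St3gal2, which sialylates core 1 and glycolipids, was higher by 1.15 in Treg than in CD45RBhigh cells (SE 0.14, adjusted p = 0.000112) and by 0.68 in Treg than in CD45RBlow cells (SE 0.14, adjusted p = 0.00778). In CD45RBlow against CD45RBhigh cells it was higher by 0.47 (SE 0.13, adjusted p = 0.0380), a call lost in 12 of 20 alternatives. St3gal1, which caps core 1 and so competes with core 2 branching, was lower by -0.85 in Treg than in CD45RBlow cells (SE 0.21, adjusted p = 0.0200). Of the enzymes that add sialic acid to the first GalNAc, St6galnac1 was lower by -0.81 in Treg than in CD45RBlow cells (SE 0.17, adjusted p = 0.00845). It was higher by 0.83 in CD45RBlow than in CD45RBhigh cells (SE 0.16, interval 0.48 to 1.18, adjusted p = 0.00452). Its CD45RBhigh mean of 3.62 lay under the first quartile of all values, and its Treg mean of 3.643 just above it. Both sizes may therefore be too small. St6galnac2 was higher by 0.44 in CD45RBlow than in CD45RBhigh cells (SE 0.09, adjusted p = 0.00726), and St6galnac4 by 0.33 in Treg than in CD45RBlow cells (SE 0.09, adjusted p = 0.0296).

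In fucose supply, Gmds, the first enzyme of GDP-fucose synthesis from GDP-mannose, was higher by 0.49 in Treg than in CD45RBhigh cells (SE 0.08, adjusted p = 0.00103) and by 0.40 in Treg than in CD45RBlow cells (SE 0.08, adjusted p = 0.00643). Fut10, a further member of the fucosyltransferase family, was higher by 0.29 and 0.31 in Treg than in CD45RBhigh and CD45RBlow cells (SE 0.08 each, adjusted p = 0.0310 and 0.0290). Signal was low for Fut10, with means of 4.15 in Treg, 3.85 in CD45RBlow and 3.87 in CD45RBhigh cells. The Fut10 probe set has the suffix s, as have those of B3gnt2 and St6galnac4. In sulfate supply, Slc35b3, a transporter of the sulfate donor into the Golgi, was lower by -0.37 in Treg than in CD45RBhigh cells (SE 0.11, adjusted p = 0.0458), a call lost in 13 of 20 alternatives. Of the other GlcNAc or galactose 6-O-sulfotransferases listed (Chst1, Chst4, Chst5 and Chst7) 0 passed in any comparison.

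These pathway calls differ in how firm they are. Those of St3gal6, and of B4galt4 in both comparisons with Treg cells, held in each of 20 alternatives. Leaving out single arrays ended those of B3gnt2 (without Treg replicate 1 or 2 or CD45RBhigh replicate 2, 3 or 4, adjusted p up to 0.120), B4galt1 (without any 1 Treg array, up to 0.0663) and B4galt3 (without Treg replicate 1 or 2 or CD45RBhigh replicate 3, up to 0.109). Likewise, B4galt4 between the CD25- populations was lost without CD45RBlow replicate 1 or 2 or CD45RBhigh replicate 3 or 4 (up to 0.0910), and St3gal1 without Treg replicate 1 or 2 or CD45RBlow replicate 4 (up to 0.0890). St6galnac4 was lost without Treg replicate 1 or 4 or CD45RBlow replicate 1 or 2 (up to 0.107), and both calls of Fut10 were lost without any 1 of the Treg arrays and without some CD25- arrays (up to 0.0917). The call of St3gal2 between the CD25- populations was lost without any 1 array other than CD45RBlow replicate 3 and CD45RBhigh replicate 4 (up to 0.106). That of Slc35b3 was lost without any 1 array other than Treg replicate 1 and replicate 3 of either CD25- population (up to 0.161).

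Other calls did not hold within a replicate set or under another scaling. Within replicates 3 and 4, with 1 Treg array, St6galnac2 in CD45RBlow minus CD45RBhigh was 0.22 (adjusted p = 0.192) and St6galnac1 in Treg minus CD45RBlow was -0.46 (adjusted p = 0.145). St3gal2 between the CD25- populations was 0.25 there (adjusted p = 0.449), and Gmds was 0.35 in Treg minus CD45RBhigh and 0.36 in Treg minus CD45RBlow (adjusted p = 0.0717 and 0.0758). B3gnt2, St6galnac4, Slc35b3 and both differences of Fut10 did not pass in that set either (adjusted p from 0.0929 to 0.204). Within replicates 1 and 2, St3gal2 in Treg minus CD45RBlow was 0.53 (adjusted p = 0.0774), and neither difference of Fut10 passed (adjusted p = 0.221 and 0.118). B4galt1 passed in neither set (adjusted p = 0.188 and 0.0907) and was -0.17 after quantile normalization (adjusted p = 0.145), which also ended the call of Slc35b3 (-0.26, adjusted p = 0.156).

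**Figure D4:**
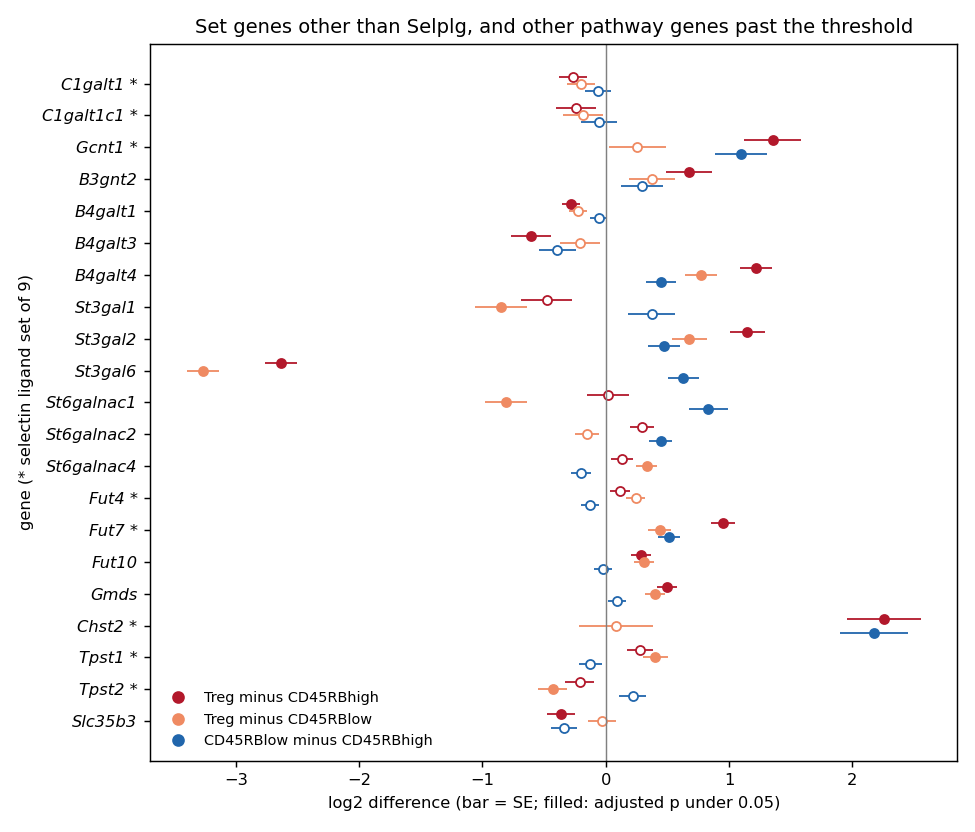
Log2 difference (point) with its SE (bar) in the 3 comparisons for 8 of the 9 genes (starred) and the 13 other pathway genes that passed in at least 1 comparison, with filled points for an adjusted p under 0.05. St3gal6 lies at -2.64 and -3.27 in the comparisons with Treg cells, opposite to Chst2 at 2.26 in Treg minus CD45RBhigh.

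Selectins and other carriers were looked at too. Selp, which encodes P-selectin of platelets and endothelium, was higher in Treg cells, by 0.37 against CD45RBhigh (adjusted p = 0.0152, but 0.0572 without Treg replicate 4 and 0.0874 within replicates 1 and 2) and by 0.48 against CD45RBlow cells (adjusted p = 0.0049). Sele, which encodes E-selectin, read 2.61 to 2.96 on all arrays, under the first quartile, and did not pass.

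Of 8 other proteins that carry selectin ligands, 4 were measured. Cd44, which carries E-selectin ligands on activated leukocytes and marks antigen-experienced T cells, had 9.69, 9.33 and 8.72 in Treg cells, 9.80, 9.90, 8.71 and 8.83 in CD45RBlow cells and 8.29, 7.91, 7.41 and 7.61 in CD45RBhigh cells. No CD45RBhigh array reached a Treg or CD45RBlow array. Cd44 was 2.72-fold higher in Treg than in CD45RBhigh cells (1.44, SE 0.34, adjusted p = 0.0120, but 0.0596 without Treg replicate 1). It was 2.84-fold higher in CD45RBlow than in CD45RBhigh cells (1.50, SE 0.31, adjusted p = 0.0083). Cd34, Madcam1 and Glycam1, carriers best known from vessels, did not pass.

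Markers of other cell types and states moved with the populations, and their part in the results above was not tested. Regulatory T cell markers (13 listed, 4 measured) were Il2ra, Itgae, Klrg1 and Il10. Each was higher in Treg than in CD45RBlow cells, and higher in CD45RBlow than in CD45RBhigh cells. Their summed log2 levels ran from 37.4 to 39.5 on Treg arrays, from 25.3 to 28.7 on CD45RBlow arrays and from 19.4 to 20.6 on CD45RBhigh arrays. Of 7 markers of activated or memory T cells 7 were higher in CD45RBlow than in CD45RBhigh cells, 2 were higher in Treg than in CD45RBhigh cells, and 6 were lower in Treg than in CD45RBlow cells. Their summed log2 levels ran from 49.5 to 50 on Treg arrays, from 61.3 to 68.2 on CD45RBlow arrays and from 43.8 to 47.9 on CD45RBhigh arrays. Of 4 measured markers of natural killer or CD8 T cells (8 listed), Klrd1 and Klra3 were lower in Treg than in CD45RBhigh cells, Klrd1 and Klrc1 were lower in Treg than in CD45RBlow cells, and 1 was higher and 1 lower in CD45RBlow than in CD45RBhigh cells, with sums of 13.0 to 13.8 in Treg, 18.7 to 20.6 in CD45RBlow and 19.4 to 20.3 in CD45RBhigh cells.

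Of 6 B cell markers 2 were measured, Cd22 and Cd72, with sums of 14.5 to 14.8 in Treg, 13.6 to 14.4 in CD45RBlow and 13.6 to 13.9 in CD45RBhigh cells. Both were higher in Treg than in CD45RBhigh cells, 1 was higher and 1 lower in Treg than in CD45RBlow cells, and 1 was higher in CD45RBlow than in CD45RBhigh cells. Of 5 measured myeloid markers (12 listed) 0 passed in any comparison by limma, with sums of 19.1 to 19.5 in Treg, 18.8 to 19.5 in CD45RBlow and 19.1 to 19.4 in CD45RBhigh cells. Of the 2 measured platelet or erythroid markers, Selp and Pf4, Selp passed as given above, with sums of 9.44 to 10.1 in Treg, 8.97 to 9.47 in CD45RBlow and 9.17 to 9.50 in CD45RBhigh cells. Of the 2 measured endothelial markers, Sele and Pecam1, Pecam1 was lower in both Treg and CD45RBlow than in CD45RBhigh cells, with sums of 11.6 to 12.3, 11.8 to 12.1 and 12.3 to 12.9.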

How the data were processed

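Transcript levels were measured on 11 arrays of a custom glyco-gene chip, 1 per sample. The authors deposited log2 expression values per probe set, made with Robust Multichip Average (RMA), per the series text and the submitters' processing notes, with no version stated. RNA extraction is given as Trizol in the labels and as RNeasy in the series text. Of 1246 probe sets 963 had a gene name through RefSeq identifiers, and 283 did not. No further scaling, filter or imputation was applied.

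The fit used limma 3.58.1 under R 4.3.3 (lmFit and eBayes, prior degrees of freedom 2.87, residual 8) on all 11 arrays, with a mean for each population. Tests were two-sided, p-values were adjusted by Benjamini-Hochberg across 1246 probe sets per comparison, the threshold was 0.05 and intervals are at 95%. Genes named are the 9 genes with all their probe sets, the other pathway genes past the threshold, Selp, Sele and measured carriers, Il2ra and Ccr7, and the 3 most alike genes for Fut7, Chst2 and Gcnt1. The genes, lists and tests were chosen with earlier results of these data known. One gene that this rule names is not reported here. Marker genes are named from lists, and the replicate sets came from an earlier look at the data.

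Replicate numbers are from the labels. Deviations from population means correlated at 0.31 to 0.56 in the 10 same-number pairs (median 0.46). In the 10 pairs of other numbers within replicates 1 and 2 or 3 and 4 they correlated at 0.20 to 0.58 (median 0.28). All these pairs were over 0.1 and the ranges overlap. By these correlations, pairing by number is not told apart from likeness within these sets. Sample titles with the same number do end alike across populations, so arrays of the same number may belong together. The main fit used no block. The number was used as a block in an alternative, and values with this block are printed where they change a call. The labels do not say what a number marks. Other alternatives were only the arrays compared, median centring, quantile normalization, a filter on probe sets with a mean under 3.64, an intensity trend, no moderation, leaving out each array, fits within replicate sets and other probe sets. Running them on the other named genes was chosen after seeing the data. The scalings left the median of all differences within 0.1. The fit was tested on simulated data drawn independently for each array, without likeness within replicate sets or equal values. That run therefore does not cover these features of the data. Tables were made with Python 3.11.15 and pandas 2.3.3 and figures with matplotlib 3.10.9.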

Additional observations from a re-analysis of the deposited data

Results flagged for a closer look

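Of 18 groups of 4 arrays, 2 held an array whose gap to the nearest other array was large against the range of the group, by Dixon's criterion, which chance meets in about 1 of 20 groups. Gcnt1 read 2.33 on CD45RBhigh replicate 2, while the other 3 arrays of that population read 2.92 to 2.95. Fut7 read 6.44 on CD45RBlow replicate 4, where the other 3 arrays held 1 identical value, 6.42. Any other value beside identical ones meets the criterion, so this flag follows from the equal values. The rate of 1 in 20 does not apply to it.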

How the results depend on the processing

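Of 27 differences (9 genes in 3 comparisons) 9 passed. Over their alternatives 158 values kept the call, 22 lost it and 0 changed sign; among the others 348 kept their side, 9 passed and 9 changed sign. The differences of Fut7 and Chst2 from CD45RBhigh cells kept their calls in every alternative run. With the replicate block 5 of the 9 genes passed in Treg minus CD45RBhigh, and 245 probe sets passed in Treg minus CD45RBlow and 271 in CD45RBlow minus CD45RBhigh; the block changed no call of the 9 genes besides those given for C1galt1, Tpst1 and Fut4. In Treg minus CD45RBlow 1 of the 9 genes passed without moderation (Fut7), 0 by limma within replicates 3 and 4, and 1 to 3 with 1 array left out. The differences that changed sign were all within their error: Chst2 in Treg minus CD45RBlow was -0.00265 with the block, -0.18 within replicates 3 and 4 and -0.177 to 0.416 with 1 array left out, Gcnt1 there was -0.0374 within replicates 3 and 4, and C1galt1c1 in CD45RBlow minus CD45RBhigh was 0.0484 within replicates 1 and 2 and -0.14 to 0.042 with 1 array left out. Gcnt1 in Treg minus CD45RBhigh lost its call within replicates 3 and 4, and both of its calls with its other probe set; the filter on dim probe sets removed Gcnt1. Within replicates 3 and 4 there was 1 Treg array, assumed to vary like the other groups. The cause of these changes was not tested. Low signal limits Gcnt1 and Fut4, whose levels lay near the first quartile of all values.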
